A study of Homo sapiens with 15 samples.

Results

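The axon guidance genes examined here were the semaphorins of classes 3 to 7, the plexins, neuropilins, slits, roundabouts, netrins, UNC5 receptors, ephrins and Eph receptors. They were taken by gene symbol among the array probes whose RefSeq accession named a gene, which gave 72 genes (101 probes) of the 19483 genes so named. By role, 37 were ligands and 33 were receptors. The symbol pattern also took EPHA1-AS1 and EPHA5-AS1, antisense transcripts with neither role, and neither of these was well above background on any array. Expression was measured in PE/CA-PJ41, an established line of human oral squamous carcinoma cells, on 15 Agilent arrays in the green (Cy3) channel. The comparison was between cells carrying an empty transfection vector (NCE, 3 biological replicates on 9 arrays) and cells transfected with a CYGB vector (CYGB+, 3 biological replicates on 6 arrays), and it asks how transcription differed with cytoglobin, a haem-containing globin. All cells grew in the same supplemented RPMI1640 medium, and the RNA was extracted on 3 occasions. Per the study's methods, the CYGB+ cells were the line LST421, which is 1 clone of a pCMV6-Neo cDNA transfection picked with cloning rings in G418 sulfate, so a difference between the groups cannot be told apart from a difference between clones. The study's legends call the control line un-transfected, whereas the labels give it an empty vector.

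Axon guidance molecules were named for steering growing nerve fibres, and epithelial and carcinoma cells use them too. Secreted semaphorins bind neuropilins, which signal through class A plexins, whereas membrane-bound semaphorins bind plexins directly. Slits bind roundabouts, netrins bind DCC, neogenin and the UNC5 receptors, and ephrins, themselves held at the membrane, bind Eph receptor tyrosine kinases on a neighbouring cell.

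The labels were checked first. The only CYGB probe read 11.85, 12.15 and 11.96 log2 signal in the NCE replicates and 11.38, 12.44 and 11.97 in the CYGB+ replicates. The ranges overlapped and the difference was −0.05 ± 0.25 (SE, limma adjusted p = 0.906), so the targeted gene did not separate the arrays labelled CYGB+ from the others. The study describes PE/CA-PJ41 as not expressing cytoglobin, and reports high levels in LST421 by qPCR and in-cell ELISA. The probe's signal in NCE, above background on all 9 arrays, is at odds with that description, and the reason was not tested. Whether this probe lies within the transfected cDNA is not known here, and every direction below rests on the labels. Of the squamous markers, 13 of 13 were tested and 12 were well above background on all 15 arrays, with a median difference of −0.007. KRT6A fell by 0.46 (adjusted p = 0.0456) and ITGB4 by 0.66 (adjusted p = 0.0322). In the fit with slide as a block, described below, neither was called (−0.05 and −0.28). KRT14 rose by 0.76 without overlap of the replicates, but was not called (adjusted p = 0.0609). Some markers of other cell types were also measured. The collagen gene COL1A2 fell by 1.32 (adjusted p = 0.00278), and CD14 was above background on all 15 arrays, with means of 8.28 in NCE and 7.82 in CYGB+ (adjusted p = 0.15). COL1A1, CDH5 and SNAP25 were tested and not called, and PTPRC and CD3E were above background on 3 and 1 NCE and 2 and 2 CYGB+ arrays. By contrast, COL3A1, LUM and PDGFRB (fibroblast), VWF, TEK and EMCN (endothelial) and RBFOX3 and SOX10 (neuronal and Schwann) were above background on no array. The part of these cell types in the results below was not tested. On each array 53.8 to 61.3% of spots were well above background, and the number of arrays limits the precision. In 4 arrays (NCE replicate 1 array 3, NCE replicate 3 array 2, CYGB+ replicate 1 array 1 and CYGB+ replicate 3 array 2) the best correlation with an array of the same group was 0.22 to 0.33, against at least 0.45 in the other arrays. The 2 arrays of CYGB+ replicate 1 correlated at −0.03 with each other. NCE replicate 3 array 2 reached 0.05 with an array of its own replicate and 0.32 with a CYGB+ array. Slide 1 held 8 NCE arrays, and slide 2 held the remaining NCE array and the 6 CYGB+ arrays. Slide and group are thus nearly the same split, and the only NCE array on slide 2 is among the 4 that stand apart.

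Promoter windows from RefSeq (GRCh38.p14) were found for 61 of the 72 genes. They included those of SLIT3, which showed the largest change among the tested members, and of EFNB2 and SEMA6C, called lower. Each window is 300 bases, written 5′ to 3′ along the gene with GC boxes (GGGCGG on either strand) in capitals, to show the sequence around the start of genes that moved in opposite directions.
SLIT3, chr5:169301090-169301389, minus strand: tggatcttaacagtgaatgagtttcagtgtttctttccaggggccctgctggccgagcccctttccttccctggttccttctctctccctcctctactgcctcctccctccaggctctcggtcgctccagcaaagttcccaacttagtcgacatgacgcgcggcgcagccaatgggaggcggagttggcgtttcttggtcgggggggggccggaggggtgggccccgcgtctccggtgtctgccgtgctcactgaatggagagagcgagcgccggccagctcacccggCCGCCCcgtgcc
EFNB2, chr13:106535613-106535912, minus strand: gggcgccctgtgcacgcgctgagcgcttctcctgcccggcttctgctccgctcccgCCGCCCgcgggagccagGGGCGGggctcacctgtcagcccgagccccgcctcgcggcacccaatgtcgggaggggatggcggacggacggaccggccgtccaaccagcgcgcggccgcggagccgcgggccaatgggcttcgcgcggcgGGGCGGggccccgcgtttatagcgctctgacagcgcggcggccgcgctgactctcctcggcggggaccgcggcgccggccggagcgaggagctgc
SEMA6C, chr1:151146582-151146881, minus strand: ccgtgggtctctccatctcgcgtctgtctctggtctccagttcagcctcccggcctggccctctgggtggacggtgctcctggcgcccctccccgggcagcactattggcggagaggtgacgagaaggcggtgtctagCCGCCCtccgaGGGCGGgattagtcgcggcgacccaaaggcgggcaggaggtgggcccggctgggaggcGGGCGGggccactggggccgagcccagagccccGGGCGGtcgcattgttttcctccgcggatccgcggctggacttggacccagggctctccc
The SLIT3 window held 22 CpG and 1 GC box, that of EFNB2 49 CpG and 3 GC boxes, and that of SEMA6C 28 CpG and 4 GC boxes, beside a median of 14 CpG over all windows. A GC box occurred in 68 of the 95 windows of these genes (71.6%) and in 45.0% of all 35116 windows of this length. CCAAT on either strand occurred in all 3 windows printed, in 28 of the 95 windows of these genes (29.5%) and in 34.6% of all windows. These matches describe letters and not bound sites.

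Detection split the families. A gene was read from its brightest probe and tested where that probe was well above background on every array of at least 1 group. This held for 40 of the 72 genes (55.6%), beside 62.2% of all named genes, for 23 of 37 ligands (62.2%) and for 17 of 33 receptors (51.5%). The neuropilins (2 of 2), plexins (7 of 9), class 4 semaphorins (5 of 6) and class 3 semaphorins (5 of 7) were mostly tested. By contrast, 1 of 4 roundabouts, 1 of 4 UNC5 receptors, 2 of 6 netrins and 3 of 9 EphA receptors were. A further 19 genes were above background on no array, although for NTNG1 and EPHA8 a dimmer probe was above background on some array.

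**Figure D1:**
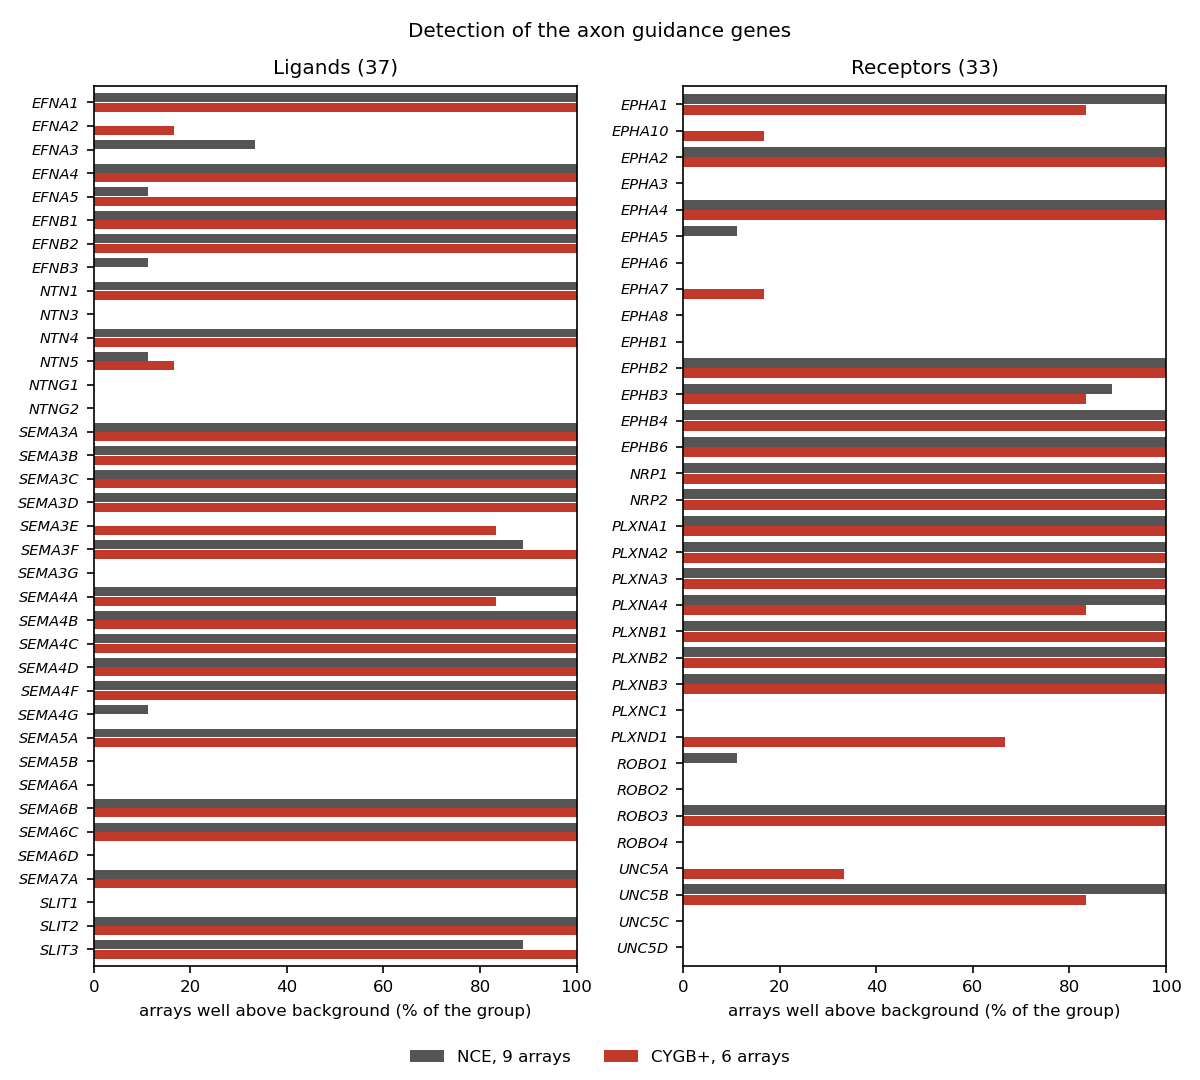
Share of arrays (%) on which each gene's brightest probe was well above background, for 9 NCE arrays (grey bars) and 6 CYGB+ arrays (red bars), with the 37 ligands on the left and the 33 receptors on the right. ROBO3 and UNC5B are the tested members of their families. SEMA3E, PLXND1, UNC5A, EFNA2, EPHA7 and EPHA10 have bars in CYGB+ alone, and EFNA3, EFNB3, SEMA4G, EPHA5 and ROBO1 in NCE alone.

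In CYGB+ cells the ligands SLIT3 and NTN1 were higher, and the ligands SEMA3A, EFNB2 and SEMA6C and the receptor NRP1 were lower. The changes ran from 1.51-fold (SEMA6C) to 2.56-fold (SLIT3). Thus 2 of 40 tested members were called higher, where 6.77% of all 12119 tested genes were, and 4 were called lower, where 6.98% of all were. SLIT3, 1 of the 2, passed the filter only through CYGB+, where it was higher, and adds no support to that share. The share of members called in either direction, 15%, was near the 13.7% of all tested genes. Their median log2 fold change was 0.02, beside 0.01 over all tested genes. Values are log2 signal after an offset of 50 was added, a scale that understates the change of dim genes, and a gene was called at an adjusted p under 0.05 over all 19763 tested probes. The replicates of 1 group are cultures of 1 line, and the p-values of the fits on replicate means measure the spread between them. That spread includes variation of repeat arrays, whose median SD within a replicate was 0.186 over the 40 tested members, beside 0.152 between replicate means. The fit with slide as a block used the 15 arrays, with replicates as a random block. In it, and in the same fit without the slide term, the estimated correlation within a replicate was 0.19. Their p-values therefore also rest on the spread of repeat arrays. Slide 1 held no CYGB+ array, so the difference with slide as a block rests almost wholly on the 1 NCE array of slide 2. That array is among the 4 that stand apart. The difference within slide 2 is therefore not a separate check. The fit without the slide term gave the lowest adjusted p below for SLIT3, NTN1, NRP1 and SEMA3A. Within slide 2 there is 1 NCE array, so hardly any probe can pass there, and those adjusted p values say nothing on stability and are left out of the ranges given.

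**Figure D2:**
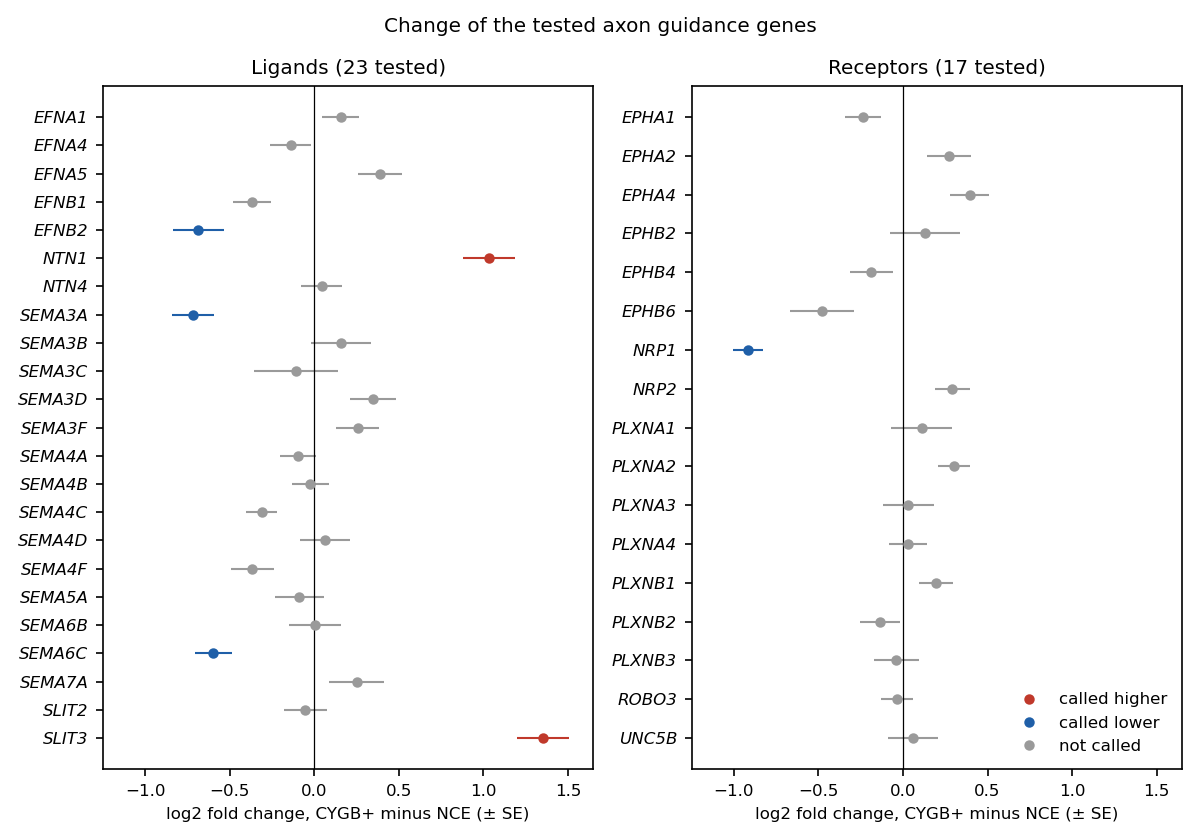
Log2 fold change (CYGB+ minus NCE, bars ± SE) of the 23 tested ligands and 17 tested receptors, ordered by family, with called genes coloured. SLIT3 (1.35) and NTN1 (1.03) lie to the right, and NRP1 (−0.92) is the one receptor called.

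SLIT3, a secreted ligand of the roundabouts, read 6.54, 6.53 and 6.34 in the NCE replicates and 7.92, 8.04 and 7.51 in the CYGB+ replicates. Every CYGB+ array (7.37 to 8.07) lay above every NCE array (6.19 to 6.64), of which 8 were above background. SLIT3 therefore passed the filter only through CYGB+, the group where it was higher. Its test results are given as a description and add no support to the shares called. The difference was 1.35 ± 0.15 (SE, 2.56-fold, limma adjusted p = 0.00468). With slide as a block it was 1.43 (adjusted p = 0.00221), and within slide 2, with 1 NCE array, it was 1.39. Over the 17 alternatives other than slide 2 alone, slide as a block included, the adjusted p ran from 8.87e-07 to 0.0449. The scanner software's processed signal gave 2.74, over 1.5 times as large.

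Its relatives and receptors were read beside it. SLIT2 read 7.10, 7.33 and 6.95 in NCE and 6.97, 7.17 and 7.09 in CYGB+, with overlapping ranges (adjusted p = 0.816), and SLIT1 was above background on no array. Of the receptors, ROBO3 read 6.44, 6.52 and 6.41 in NCE and 6.42, 6.46 and 6.40 in CYGB+, a difference of −0.03 ± 0.09 (SE, adjusted p = 0.842). ROBO2 and ROBO4 were above background on no array and ROBO1 on 1 NCE array. The ligand of the pair therefore rose in cells where 1 of 4 roundabouts was measurable, and that receptor was not called.

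NTN1 encodes netrin-1, the secreted ligand of DCC and the UNC5 receptors. It read 6.69, 6.56 and 6.54 in NCE and 7.93, 7.62 and 7.35 in CYGB+, and neither the replicates nor the arrays overlapped. The highest NCE array (7.03), the one on slide 2, came near the lowest CYGB+ array (7.07). The difference was 1.03 ± 0.15 (SE, 2.05-fold, limma adjusted p = 0.00903). It was 0.60 with slide as a block (adjusted p = 0.294), 0.61 within slide 2 and 2.00 from the processed signal. Over the 18 alternatives other than slide 2 alone, the adjusted p ran from 0.000189 to 0.294, the latter with slide as a block. In the same array-level fit without the slide term the adjusted p was 0.000189, so the call was lost with that term, while the direction was kept.

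Most netrin receptors were dim, apart from DSCAM, which was above background on all 15 arrays and fell (values with the wider pathway). DCC, UNC5C and UNC5D were above background on no array, UNC5A on 2 CYGB+ arrays and NEO1, the neogenin gene, on 3 CYGB+ arrays. UNC5B read 6.57, 6.54 and 6.45 in NCE and 6.36, 6.50 and 6.89 in CYGB+, with overlapping ranges (0.06 ± 0.15, SE, adjusted p = 0.818). Of the other netrins, NTN4 was tested and read 8.21, 8.13 and 8.20 in NCE and 8.32, 8.00 and 8.35 in CYGB+ (adjusted p = 0.841). NTN3 and NTNG2 were above background on no array.

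NRP1 encodes neuropilin-1, the co-receptor that binds SEMA3A and also the growth factor VEGFA. It had the tightest replicates of the called genes, at 8.33, 8.35 and 8.31 in NCE and 7.42, 7.43 and 7.38 in CYGB+. All 9 NCE arrays (8.22 to 8.40) lay above all 6 CYGB+ arrays (7.32 to 7.50). It fell by 0.92 ± 0.09 (SE, 1.89-fold, limma adjusted p = 0.00394). With slide as a block the difference was −0.90 (adjusted p = 0.000804) and within slide 2 it was −0.91. Over the 19 alternatives other than slide 2 alone, slide as a block included, the adjusted p ran from 1.22e-07 to 0.0291. A second NRP1 probe, for another RefSeq transcript, read 7.77, 8.12 and 8.04 in NCE and 7.12, 7.59 and 7.81 in CYGB+, with overlapping ranges (−0.47 ± 0.19, SE, adjusted p = 0.152), so the probes disagree on the call.

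SEMA3A, the secreted semaphorin that NRP1 binds, fell as well. It read 7.44, 7.49 and 7.68 in NCE and 6.65, 6.83 and 6.98 in CYGB+, and no array of the one group overlapped the other. The difference was −0.72 ± 0.12 (SE, 1.64-fold, limma adjusted p = 0.0146). It was −0.52 with slide as a block (adjusted p = 0.111) and −0.50 within slide 2, and the processed signal gave −1.35. Over the 19 alternatives other than slide 2 alone, the adjusted p ran from 5.3e-05 to 0.111, the latter with slide as a block. Without NCE replicate 2 it was −0.74 (adjusted p = 0.0627), and without NCE replicate 3 it was −0.64 (adjusted p = 0.0675).

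Other members of the class 3 semaphorin system were not called. NRP2 read 6.48, 6.54 and 6.35 in NCE and 6.69, 6.86 and 6.70 in CYGB+, which did not overlap (0.29 ± 0.10, SE, adjusted p = 0.115). PLXNA1, PLXNA3 and PLXNA4, class A plexins that signal for neuropilins, had differences of 0.11, 0.03 and 0.03, and PLXNA2 one of 0.30 (adjusted p = 0.0793). SEMA3B, SEMA3C, SEMA3D and SEMA3F ranged from −0.11 to 0.35, and SEMA3G was above background on no array. VEGFA read 9.78, 9.97 and 10.45 in NCE and 9.68, 9.57 and 9.36 in CYGB+, without overlap (−0.53 ± 0.18, SE, adjusted p = 0.102). KDR, a VEGFA receptor, was above background on 1 CYGB+ array, and GIPC1, a scaffold that binds neuropilin-1, had a difference of −0.05 (adjusted p = 0.823). A ligand and the co-receptor it binds were thus both lower at this setting, whereas the plexins of the same complex were not called. SEMA3A lost its call with slide as a block, and the second NRP1 probe was not called. PLXNA2 was called in 6 of 18 alternatives other than slide 2 alone.

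**Figure D3:**
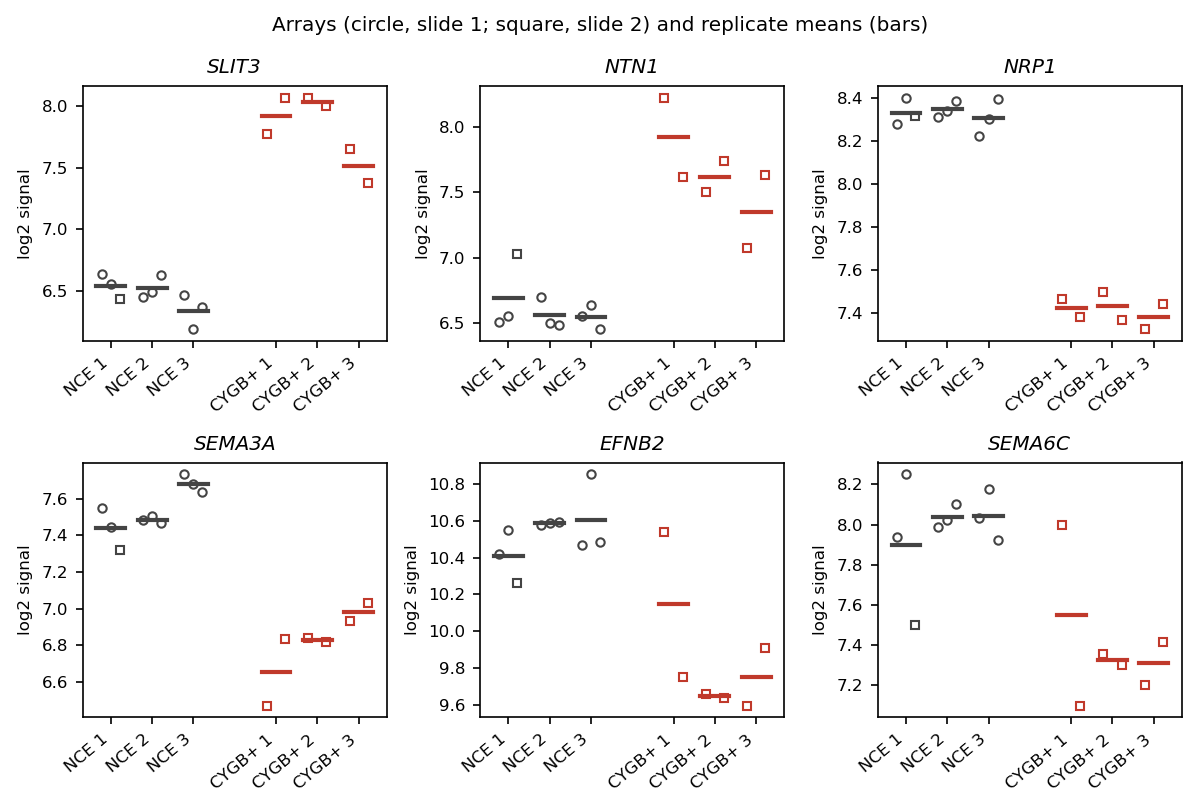
Log2 signal of the 6 called genes on each array (open circles, slide 1; open squares, slide 2), with a bar for each biological replicate's mean (NCE grey, CYGB+ red; each panel has its own axis range). In SLIT3, NTN1, NRP1 and SEMA3A no array overlaps the other group, whereas in EFNB2 and SEMA6C 1 CYGB+ array lies within the NCE range.

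EFNB2, the membrane ligand ephrin-B2, read 10.41, 10.59 and 10.60 in NCE and 10.15, 9.65 and 9.75 in CYGB+. The replicate means did not overlap, but the arrays did, since CYGB+ replicate 1 array 1 read 10.54. The difference was −0.69 ± 0.15 (SE, 1.61-fold, limma adjusted p = 0.0279), with the largest adjusted p of the called members. It was −0.44 with slide as a block (adjusted p = 0.53), −0.42 within slide 2 and −0.63 from the processed signal (adjusted p = 0.0638). Over the 19 alternatives other than slide 2 alone, the adjusted p ran from 0.00068 to 0.53, the latter with slide as a block. EFNB2 was called in 7 of these 19. Leaving out CYGB+ replicate 2 or 3, or any NCE replicate, gave −0.75 to −0.58 with adjusted p values of 0.0557 to 0.112.

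Eph receptors of EFNB2 were not called. EPHB2 read 10.37, 10.12 and 9.96 in NCE and 10.64, 10.34 and 9.86 in CYGB+, which overlapped (0.13 ± 0.21, SE, adjusted p = 0.716). Its other tested probes had differences of −0.36 (adjusted p = 0.409) and −0.07 (adjusted p = 0.805), so its probes disagree on the sign. EPHB4, its main receptor on vessels, differed by −0.19 ± 0.12 (SE, adjusted p = 0.365), and EPHB6, which lacks kinase activity, by −0.48 ± 0.19 (SE, adjusted p = 0.14). EPHA4, an EphA receptor that also binds ephrin-B2, read 6.75, 6.58 and 6.67 in NCE and 7.22, 7.03 and 6.93 in CYGB+, which did not overlap (0.40 ± 0.11, SE, adjusted p = 0.0633). EPHB1 was above background on no array, and EPHB3 missed the filter by 1 array in each group. The related ligand EFNB1 read 11.49, 11.40 and 11.48 in NCE and 11.26, 11.02 and 10.96 in CYGB+ (−0.37 ± 0.11, SE, adjusted p = 0.0737). Of these ephrin-B ligands and EphB receptors, EFNB2 was the one called, a call that most alternatives did not keep. EFNB3, the remaining ephrin-B ligand, was above background on 1 NCE array and was not tested.

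SEMA6C, a transmembrane semaphorin, read 7.90, 8.04 and 8.04 in NCE and 7.55, 7.33 and 7.31 in CYGB+. Its replicate means did not overlap, whereas the arrays did, with 7.50 on the NCE array of slide 2 and 8.00 on CYGB+ replicate 1 array 1. It fell by 0.60 ± 0.11 (SE, 1.51-fold, limma adjusted p = 0.0176), and the processed signal gave −1.06. The difference was −0.09 with slide as a block (adjusted p = 0.943) and −0.11 within slide 2. Over the 19 alternatives other than slide 2 alone, the adjusted p ran from 0.000998 to 0.943, the latter with slide as a block. It was −0.56 without CYGB+ replicate 3 (adjusted p = 0.0521), −0.57 without NCE replicate 2 (adjusted p = 0.0846) and −0.57 without NCE replicate 3 (adjusted p = 0.0823). The class A plexins, its family's receptors, are given above, and SEMA6B did not differ beyond its spread (0.00 ± 0.15, SE, adjusted p = 0.989).

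Ligands and receptors were then set side by side. Of 23 tested ligands, 5 were called (21.7%), and of 17 tested receptors, 1 was (5.88%), with 13.7% of all tested genes between them. Among the 5 is SLIT3, which passed the filter only through CYGB+ and adds no support to this share. With the filter applied to both groups, 4 ligands and 1 receptor were called. With slide as a block, 1 ligand and 1 receptor were called. Without the 4 arrays that stand apart, 8 ligands and 6 receptors were called, where 15.5% of all tested genes were called higher and 14.8% lower. The processed signal gave 5 ligands and 3 receptors. The contrast between ligands and receptors therefore moved with the setting. The median difference was −0.02 for ligands and 0.03 for receptors, with ranges of −0.72 to 1.35 and −0.92 to 0.40. Whether these shares differ was not tested. At the settings used for the 5 ligand calls and 1 receptor call, none of the tested roundabouts, UNC5 receptors, Eph receptors or class A plexins was called. NRP1, which binds SEMA3A, was the called receptor.

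The counts moved with the slide term and with the arrays used. With slide as a block, 1 member was called higher (SLIT3) and 1 lower (NRP1), where 1.66% and 2.88% of all tested genes were. Without the 4 arrays that stand apart, 7 members were called higher and 7 lower, where 15.5% and 14.8% of all tested genes were, and the calls included all 6 above. Their differences without those arrays were 1.41 for SLIT3, 0.91 for NTN1, −0.95 for NRP1, −0.69 for SEMA3A, −0.85 for EFNB2 and −0.83 for SEMA6C. EFNA5, EPHA2, EPHA4, NRP2 and PLXNA2 joined those higher, although EFNA5 passed the filter only through CYGB+, and EFNB1, SEMA4C and EPHB4 those lower. In SEMA4F the dimmer of its probes was called (−0.48 ± 0.09, SE, adjusted p = 0.0188) and the brighter was not (−0.37 ± 0.13, SE, adjusted p = 0.1).

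**Figure D4:**
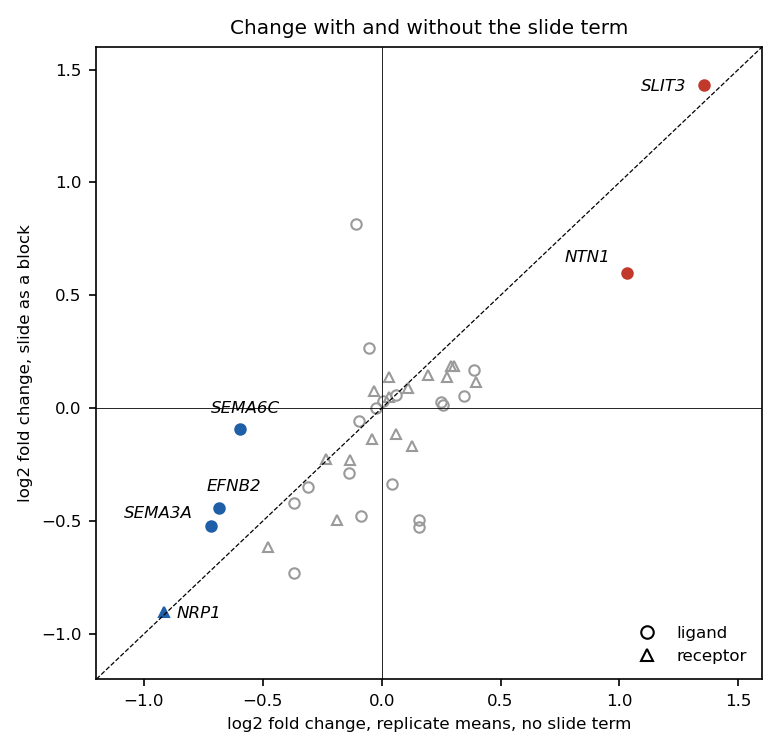
Log2 fold change of the 40 tested members without a slide term (horizontal) against that with slide as a block (vertical), circles for ligands and triangles for receptors, called genes filled; the dashed line marks equal values. SLIT3 and NRP1 lie near the line, whereas SEMA6C moves from −0.60 to −0.09.

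Some members were above background mainly in CYGB+, and these were picked after their values were seen. SEMA3E, a secreted semaphorin that binds plexin-D1, was above background on 0 of 9 NCE and 5 of 6 CYGB+ arrays, and its receptor PLXND1 on 0 of 9 and 4 of 6. EFNA5, a GPI-anchored ephrin, was so on 1 of 9 and 6 of 6 arrays and read 6.21, 6.09 and 6.09 in NCE and 6.69, 6.58 and 6.27 in CYGB+ (0.39 ± 0.13, SE, adjusted p = 0.0964). SEMA3E and PLXND1 were not tested, and all of these signals lay close to background. UNC5A was above background on 0 of 9 NCE and 2 of 6 CYGB+ arrays, and EFNA3 went the other way, on 3 of 9 and 0 of 6. EFNA2, EPHA7 and EPHA10 were so on 1 CYGB+ array, and EFNB3, SEMA4G, EPHA5 and ROBO1 on 1 NCE array. How common such patterns are over all genes was not examined.

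The wider pathway was described from a list of other ligands and co-receptors (20 of 20 genes on the array, 12 tested) and of intracellular signalling genes (57 of 58 on the array, 46 tested). In the first, 1 gene was called higher and 3 lower (33.3% of those tested, beside 13.7% of all tested genes), with a median difference of −0.09. The gene higher was NRCAM, which passed the filter only through CYGB+ and so adds no support to this share. With slide as a block, none was higher and 2 were lower. L1CAM, an adhesion molecule that associates with NRP1, read 7.37, 7.18 and 7.22 in NCE and 6.63, 6.60 and 6.59 in CYGB+, and fell by 0.65 ± 0.10 (SE, adjusted p = 0.00962; −0.92 with slide as a block, adjusted p = 0.00132). DSCAM, a netrin receptor, fell by 0.74 (adjusted p = 0.016; −0.76 with slide as a block, adjusted p = 0.0444). FLRT3, a ligand of the UNC5 receptors, fell by 0.61 (adjusted p = 0.0264; −0.67 with slide as a block, adjusted p = 0.2). NRCAM, a relative of L1CAM, was above background on all 6 CYGB+ arrays and on no NCE array, and was at least 1.34-fold higher (adjusted p = 0.0238; 0.103 with slide as a block). It was tested only because it passed the filter in CYGB+, the group where it was higher, and is given as a description. That bound sets the CYGB+ mean against, on each NCE array, the higher of its own signal and the lowest signal called above background.

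Among the signalling genes, 1 was called higher and 5 lower, which is 13.0% of those tested and near the 13.7% of all tested genes. Their median difference was −0.05. NGEF, the exchange factor ephexin that Eph receptors act through, read 8.93, 8.84 and 9.04 in NCE and 8.07, 7.86 and 8.10 in CYGB+, and fell by 0.92 ± 0.11 (SE, adjusted p = 0.0055; −1.14 with slide as a block, adjusted p = 0.00343). The actin regulator VASP fell by 0.57 (adjusted p = 0.014), the kinase PAK1 by 0.56 (adjusted p = 0.0198) and the scaffold and exchange factor ITSN1 by 0.63 (adjusted p = 0.0271). DPYSL2, a mediator of the semaphorin 3A response, had a difference of −0.50 (adjusted p = 0.0273, and 0.058 with slide as a block). However, it was above background on 4 of 6 CYGB+ arrays and passed the filter only through NCE, where it was higher. It therefore adds no support to the share of signalling genes called. RASA1, a Ras GTPase-activating protein that binds Eph receptors, rose by 0.56 (adjusted p = 0.0462). With slide as a block, NGEF, VASP, ITSN1 and CDC42, a small GTPase of the actin cytoskeleton, were called lower and none of the list higher; CDC42 was not called without that term (adjusted p = 0.118).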

How the data were processed

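RNA was measured in 6 biological replicates of PE/CA-PJ41 cells, 3 NCE on 9 arrays and 3 CYGB+ on 6 arrays. Per the file headers, the arrays (Agilent SurePrint G3, designed on hg19) were scanned in both channels under a two-colour protocol. The deposited files hold each spot's intensity from the scanner software, a processed intensity that the software had dye-normalized against red, and other columns of 0 or 1 flags. The labels give Cy3 for every sample, whereas the methods give Cy5 to the control, so the green channel was used and what red held is not known. The authors also deposited a table of 15040 probes, which are natural log values: their spread relative to log2 scanner signal was 0.69 on every array, column medians ran from −0.161 to 0.182, and each probe lay within 0.098 of 0 at the median of the CYGB+ arrays, but how it was normalized and which probes were kept stays unknown here.

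Green median signal and median background were corrected by normexp (offset 50) in limma 3.58.1 (R 4.3.3); the planned design named the mean signal, and the median signal was used in its place. Values were quantile normalized, log2 transformed, averaged over a probe's spots without outlier flags, and averaged over arrays of a replicate. The test was lmFit with eBayes, two-sided, Benjamini-Hochberg adjusted over 19763 probes well above background on every array of at least 1 group. Genes were named through RefSeq (GRCh38.p14) for 25422 of 27310 probes with a RefSeq accession, and a gene stood by its brightest probe. Named genes were the called members, their usual partners, members seen in every array of 1 group and none of the other (no tested member was), and up to 10 called pathway genes; SEMA3E, PLXND1, EFNA5 as a detection result, SEMA4F, CDC42 and the genes named for other settings were chosen after their values were seen. Data were simulated for this comparison (19763 probes), with 100 probes changed by 1 on the log2 scale and 100 by 0.5. Of these, 91% and 9% were recovered, and 8 unchanged probes were called. The simulated noise was independent and held no slide effect or outlying array. Far fewer probes were changed than the 2373 called in the data, so these shares do not carry over to the data. Replicate numbers pair the samples by the rule used (same-numbered deviations correlated at 0.22, 0.23 and 0.31), although NCE 2 with CYGB+ 3 reached 0.31 too. The members and lists were chosen with earlier results of these data known.

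Alternatives were the processed signal, a 75th percentile shift, the deposited log table, other filters, the mean of a gene's probes, an intensity trend, the methods' t-test, a replicate block, slide as a block (replicates as a random block), slide 2 alone, and leaving out each replicate. Leaving out the 4 arrays with no correlation of 0.4 in their own group, and a fit on single arrays without the slide term, were added after seeing the data.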

Additional observations from a re-analysis of the deposited data

Results flagged for a closer look

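Among the 12 gene and group combinations of the 6 called genes, 4 arrays lay far from the rest of their group, where chance flags about 1 in 20 groups. EFNB2 read 10.54 on CYGB+ replicate 1 array 1, beside 9.91 on the next CYGB+ array, and SEMA6C read 8.00 on that same array, beside 7.42 on the next. On NCE replicate 1 array 3, the NCE array of slide 2, NTN1 read 7.03, beside 6.70 on the next NCE array, and SEMA6C read 7.50, beside 7.92. Both arrays are among the 4 that stand apart over all probes. In the red channel, which no comparison used, 35 of the 72 genes were well above background on all 15 arrays. What the red channel held is not given in the labels.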

How the results depend on the processing

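Over 117 values of the 6 called genes under the alternatives, none changed direction, 88 stayed past the threshold and 29 did not. Of the 29, 6 come from slide 2 alone, where 1 NCE array lets hardly any probe pass. EFNB2 lost its call most often, and kept it in 7 of 19 alternatives other than slide 2 alone. Members called higher, 2 in all, numbered 5 with an intensity trend or either processed signal setting. They numbered 1 with the stricter filter, the methods' t-test or slide as a block, and 0 with the deposited log table. SLIT3 and NTN1 are not among the probes of that table, and SLIT3, above background on 8 of 9 NCE arrays, is left out by the stricter filter. Members called lower, 4 in all, numbered 2 by the methods' t-test (Benjamini-Hochberg) and 1 with slide as a block. The 2 by the t-test were NRP1 and SEMA4C, and SEMA4C is not among the 6 called genes. Of those 6, the t-test kept 2, SLIT3 and NRP1. Its adjusted p was 0.0542 for SEMA6C, 0.0627 for NTN1, 0.0646 for SEMA3A and 0.107 for EFNB2. Ligands called, 5 in all, numbered 2 with the deposited table, 2 by the t-test (SLIT3 and SEMA4C) and 1 with slide as a block. Receptors called, 1 in all, numbered 3 with an intensity trend or either processed signal setting, and 2 with the mean of all probes or no filter. Slide 2 alone is left out of these counts, since it holds 1 NCE array. Without the 4 arrays that stand apart, 7 were higher and 7 lower, 8 of them ligands and 6 receptors. In the fit on single arrays without the slide term, chosen after seeing the data, 9 were higher and 7 lower, 10 of them ligands and 6 receptors. Leaving out each replicate in turn gave 1 to 5 members lower and 2 to 6 ligands. With the replicate block, 2 were higher and 4 lower, the same 6 genes, and no named member changed its call. Over all probes, the 2373 calls became 712 with slide as a block (19428 probes), 5509 without the 4 arrays and 4621 on single arrays without the slide term. They became 1605 with the percentile shift, 799 by the t-test (5073 at an unadjusted p under 0.05) and 502 to 2429 without 1 replicate. The cause was not tested. Genes near background have signals that the offset compresses, and 32 of the 72 members were too dim to test.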
